A study of Mus musculus with 9 samples.

Results

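The 8 heat shock chaperone genes Hspa1a, Hspa1b, Dnajb1, Hsp90aa1, Hsph1, Hspa8, Hspd1 and Hspe1 were chosen by name, for their use as a sign of cell stress during preparation. All 8 were among the 16299 genes of the deposited table. Their levels were described in epidermal melanocytes, the pigment-making cells, which had been purified from mice by FACS and sequenced as bulk RNA, with 3 libraries in each of 3 groups. The genotype of the control tail group is Spry1flox/flox. The knockout tail and knockout back groups add k14-Cre-ERT2 to it and differ by body site, so all 3 groups share the floxed alleles. The keratin 14 promoter that drives this Cre is active in basal keratinocytes, the neighbours of the sorted cells, and ERT2 is the receptor domain that makes a Cre wait for an inducing drug. The labels give no inducing treatment, age or sex, and they do not describe how the epidermis was taken apart. They do not say that the libraries of a group came from separate animals, so a p-value here reflects no more than the spread between these samples, and that may be technical. No control back group is among the samples, so back against control tail differs in both genotype and body site.

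Chaperones hold, refold or hand on proteins that have lost their shape. In stressed cells the transcription factor HSF1 binds repeated GAA and TTC units, called heat shock elements, and switches on inducible members such as Hspa1a, Hspa1b, Dnajb1 and Hsph1, while others such as Hspa8 are abundant at rest. Freeing cells from solid tissue for sorting is a common trigger of this programme, together with immediate early genes such as Fos.

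The elements that HSF1 is known to bind were looked for in the RefSeq promoter windows (GRCm38.p6) of 6 of the 8 genes, each 300 bases long with 250 before the start. No entry was matched for Hspa8 and Hsp90aa1. The search used the letters GAANNTTC and TTCNNGAA for 2 units, and GAANNTTCNNGAA and TTCNNGAANNTTC for 3 units. The 2-unit forms each read the same on both strands, the 3-unit forms are each other's reverse complement, and a 3-unit match contains 2-unit matches. Hspa1a and Hspa1b, the 2 stress-inducible HSP70 genes, are shown in full because they are near copies and differed most of the 8 between sets of libraries: 247 of the 250 bases before their starts were identical. Both lie on the minus strand, at chr17:34972157-34972406 and chr17:34959239-34959488, and the capitals mark the 1 match in each, which begins 104 bases before the start.
Hspa1a: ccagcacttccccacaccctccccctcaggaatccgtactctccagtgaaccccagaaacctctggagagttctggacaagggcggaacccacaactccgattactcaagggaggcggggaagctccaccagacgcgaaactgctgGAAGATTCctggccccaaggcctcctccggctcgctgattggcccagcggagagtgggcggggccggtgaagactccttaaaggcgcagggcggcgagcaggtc
Hspa1b: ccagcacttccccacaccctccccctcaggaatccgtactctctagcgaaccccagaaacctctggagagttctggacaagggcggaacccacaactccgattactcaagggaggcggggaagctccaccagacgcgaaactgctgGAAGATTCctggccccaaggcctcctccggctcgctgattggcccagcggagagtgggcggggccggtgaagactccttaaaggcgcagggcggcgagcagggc
Longer matches lay in the shared promoter of Hspd1 and Hspe1 and near the start of Hsph1, and only these short sites are shown. The site of Hspe1, at chr1:55088054-55088081 on the plus strand, has 4 units, and the first matched base is 89 bases before the start. The same bases, read on the other strand, lie 144 bases before the second annotated start of Hspd1. Hsph1 has 1 site before its first start, at chr5:149636357-149636374, and 1 site of 3 units after it, at chr5:149636287-149636305, both on the minus strand.
Hspe1: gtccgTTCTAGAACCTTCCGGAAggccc
Hsph1, before the start: aatctTTCTCGAAggctc
Hsph1, after the start: gcagaTTCTGGAAAGTTCt
The 2 windows of Dnajb1 and the window of the first Hspd1 start held no match. Across the 32851 windows of the same length, 15.1% held a 2-unit match and 0.603% a 3-unit match.

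The libraries differed in ways that touch these genes. Recovered totals ran from 45658165 to 67891350 counts per library. Genes with 0 counts numbered 4628 and 6127 in back libraries 1 and 2, and 854 to 1739 elsewhere. For every gene the third libraries of the 2 knockout groups together had the same mean deposited value as the remaining 7, so a shift between these 2 sets of libraries had been removed before deposit. Normalised counts, which are recovered counts over the library's size factor, still hold the difference between the sets. The labels name no batch. Spry1, the targeted gene, had a normalised count of 1074 to 1510 in control tail, 587 to 3590 in knockout tail and 0 to 2283 in knockout back. These counts come from sorted melanocytes, so they do not show whether it was lost in keratinocytes, where the Cre promoter is active. The Y-linked gene Eif2s3y was at 0 to 121.5 in control tail and at 2974 to 4793 in 5 of the 6 knockout libraries, and it was 0 in the third knockout tail library, so sex-linked transcripts also differed within and between groups.

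Set by level per length, the constitutive Hspa8 stood highest of the 8 in control tail. The mean normalised count per kilobase of annotated exon was 19596 ± 2782 for Hspa8 (SD, n = 3 here and below), which ranked 169 of 15902 genes with a length. Hspe1 followed at 7290 ± 421, Hsp90aa1 at 6284 ± 1294 and Hspd1 at 4909 ± 577. Lower levels per kilobase were seen for Dnajb1 at 2696 ± 5.60, Hspa1a at 2334 ± 1399, Hspa1b at 764 ± 462 and Hsph1 at 41.5 ± 32.7. The libraries of neighbours in this order overlapped, except between Hspa8 and Hspe1, between Hspd1 and Dnajb1, and between Hspa1b and Hsph1. In knockout tail Hspa8 was still first, at 19832 ± 6074 per kilobase, with all 3 libraries above those of the next gene, Hsp90aa1, at 7424 ± 2961. In knockout back Hspa1a came first by its mean, at 29146 ± 33889 per kilobase and rank 84, ahead of Hspa8 at 25836 ± 15108 and rank 97, but their libraries overlapped. Hsph1 was lowest of the 8 in all 3 groups, with 187 ± 114 in knockout tail and 529 ± 251 in back.

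**Figure D1:**
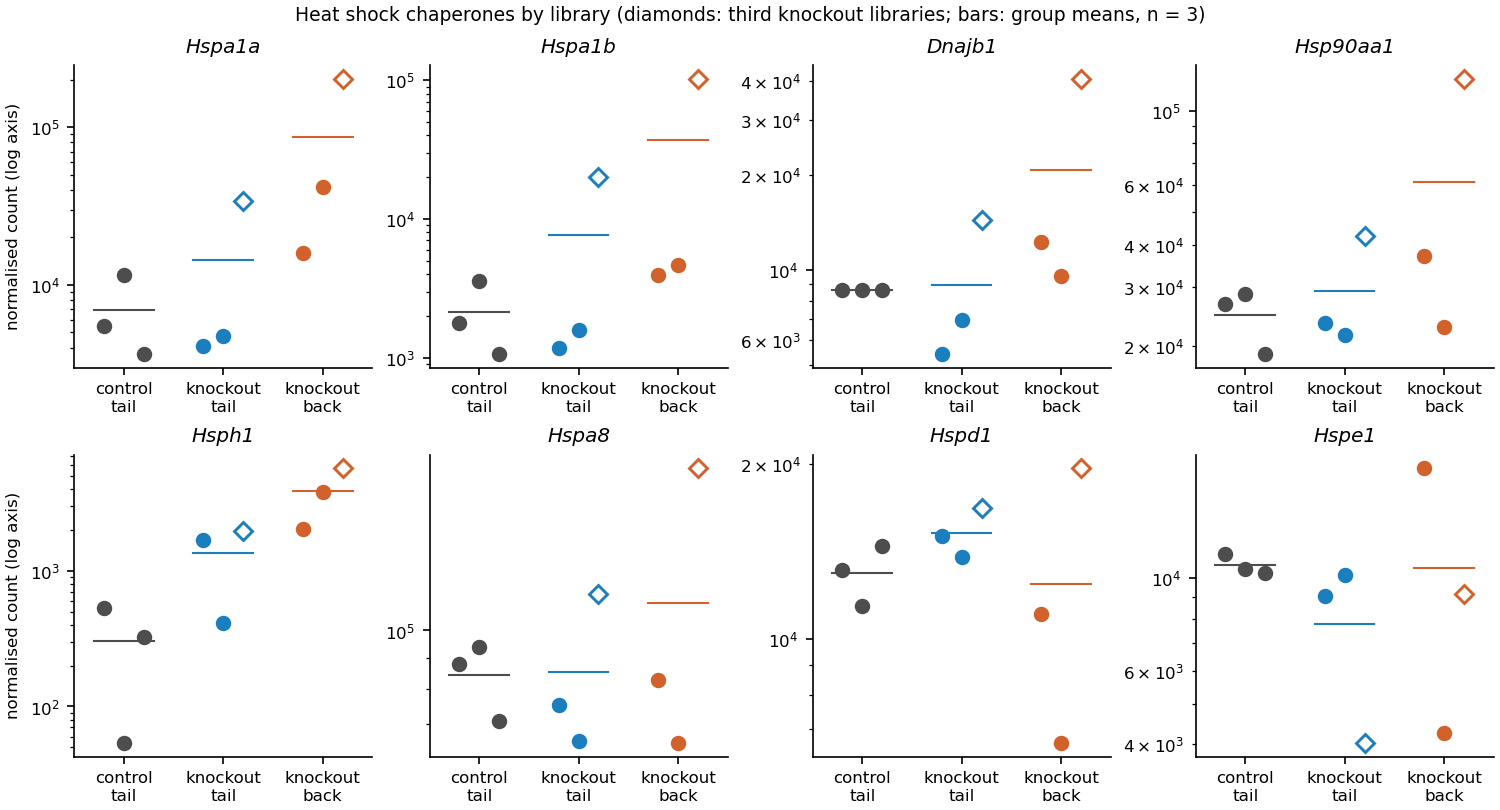
Normalised count of each of the 8 chaperones in each library on a log axis, each panel with its own range; filled circles are libraries of the larger set, open diamonds the third library of each knockout group, and bars the group means of 3 libraries. The third back library is the highest of the 9 in 7 panels, all except Hspe1.

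Hspa1a (chromosome 17, 34969190 to 34972156, minus strand, GRCm38, protein coding, ENSMUSG00000091971.3) encodes an HSP70 that is made on demand under stress. Its normalised counts were 5512, 11601 and 3666 in the 3 controls, 4106, 4720 and 34102 in the knockouts from tail and 15989, 41821 and 201616 in those from back, each from the first to the third library. Every back library lay above every control library, and the first and second knockout tail libraries lay within the control range. The third library was the highest of each knockout group, 7.74 times the geometric mean of the other 2 in tail and 7.80 times in back.

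Hspa1b (chromosome 17, 34956436 to 34959238, minus strand, ENSMUSG00000090877.3), the neighbouring copy, had normalised counts of 1773, 3581 and 1069 (control), 1171, 1583 and 20210 (knockout tail) and 3932, 4649 and 101954 (back). As for Hspa1a the third library stood highest in each knockout group, with a wider gap: 14.8 times the geometric mean of the other 2 in tail and 23.8 times in back. The order of libraries differed, since the third knockout tail library lay above both the first and the second back library. For Hspa1a it lay above the first back library only. The coding sequences of the 2 genes are 99.4% identical, with an identical run of up to 638 bases against reads of 150 bases, so how counting divided reads between them is uncertain. The ratio of Hspa1a to Hspa1b counts was 2.98 to 3.51 in the 3 control and the first 2 knockout tail libraries, 1.69 and 1.98 in the third library of either knockout group, and 4.07 and 9.0 in the first 2 back libraries. An antisense gene lies inside Hspa1a in the annotation, and without a stated strand setting its reads could not be told apart. The 2 genes together took 3.69 to 9.02% of the counts of the 8 chaperones in control tail, 3.90, 5.05 and 21.8% in the knockout tail libraries and 10.9, 29.3 and 44.1% in the back libraries.

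Dnajb1 (chromosome 8, 83608193 to 83612653, plus strand), the J-domain partner that loads clients onto HSP70, had normalised counts of 8655, 8641 and 8619 in the 3 controls, 5418, 6922 and 14449 in the knockouts from tail and 12316, 9590 and 40450 in those from back. The control libraries were nearly equal, with an SD of 17.9 around 8638, and every back library was above them. The first and second knockout tail libraries were below every control and the third was above. Hsph1 (chromosome 5, 149614287 to 149636376, minus strand), an HSP110 that exchanges the nucleotide of HSP70, had 528, 53.8 and 323 (control), 1696, 415 and 1959 (knockout tail) and 2046, 3782 and 5697 (back). It was the one member whose 3 back libraries all exceeded the 3 knockout tail libraries. Its mean was 4.5 times the control in knockout tail and 12.7 times in back, from a control group that itself spread from 53.8 to 528.

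Hsp90aa1 (chromosome 12, 110690605 to 110702728, minus strand), the inducible cytosolic HSP90, had 26571, 28593 and 18946 in the 3 controls, 23459, 21516 and 42577 in the knockouts from tail and 36995, 22801 and 124370 in those from back. Outside the third knockout libraries and the first back library, all values lay between 18946 and 28593. Hspa8 (chromosome 9, 40800984 to 40810087, plus strand), the constitutive HSP70, had 87925, 94004 and 70916 (control), 75241, 65697 and 114957 (knockout tail) and 82763, 65142 and 185461 (back). It had the narrowest range of the 6 cytosolic genes, and only the third knockout libraries stood above the control range.

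The mitochondrial pair did not share 1 order of libraries. Hspd1, the HSP60 chaperonin (chromosome 1, 55077835 to 55088243, minus strand), had 13126, 11372 and 14411 in the 3 controls, 15026, 13824 and 16756 in the knockouts from tail and 11036, 6614 and 19646 in those from back. Hspe1, its HSP10 lid (55088132 to 55091307, plus strand), had 11451, 10497 and 10288 (control), 9044, 10191 and 4026 (knockout tail) and 18352, 4264 and 9145 (back). The 2 genes are annotated head to head with overlapping starts, yet the third knockout tail library was the highest of its group for Hspd1 and the lowest of all 9 for Hspe1. A related copy of Hspd1, Hspd1.ps3 at 214 to 684 normalised counts, is in the table and could share reads with it.

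Knockout tail against control tail asks what the knockout genotype goes with at 1 body site. None of the 8 chaperones passed the test: limma with Benjamini-Hochberg adjustment over all genes called 0 of them and 0 of 16299 genes (0%), with 1 and 814 at an unadjusted p under 0.05. With limma-voom on recovered counts the number called was likewise 0. The member at an unadjusted p under 0.05 was Dnajb1, at a log2 difference of -0.57 in the deposited values (SE 0.19, unadjusted p = 0.015, adjusted p = 0.749). The other log2 differences were -0.58 for Hspa1a, -0.59 for Hspa1b, -0.32 for Hsp90aa1, 0.79 for Hsph1, -0.32 for Hspa8, 0.03 for Hspd1 and -0.32 for Hspe1. The median of the 8 was -0.32, against -0.05 over all genes.

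With the removed shift put back the signs of 3 members turned. On log2 of the normalised count plus 1, the difference was 0.50 for Hspa1a (95% interval of the fit -1.94 to 2.94), 0.82 for Hspa1b and 0.19 for Hsp90aa1. Hsph1 was at 2.40, and none of the 8 passed. This fit differs from the main one in scale as well as in the shift, so the changes cannot be credited to the shift alone. Hspe1 was the only member whose libraries did not overlap between the 2 groups in normalised counts, with all 3 knockout libraries lower, where 9.31% of genes were lower without overlap and 9.7% higher (19% in either direction). The data therefore give no direction for inducible HSP70 in knockout tail that holds in both forms of the values.

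Knockout back against knockout tail compares 2 body sites of 1 genotype, and here 2 of the 8 chaperones were called higher. Hspa1a differed by 2.47 on the log2 scale of the deposited values (SE 0.43, adjusted p = 0.039, higher in 3 of 3 back libraries than in any knockout tail library on that scale). Dnajb1 differed by 1.0 (SE 0.19, adjusted p = 0.045, likewise higher in 3 of 3). Over all genes 67 were called higher (0.411%) and 177 lower (1.09%), 1.5% in all. Hspa1b missed the threshold with 1.69 (adjusted p = 0.055), and Hsp90aa1 with 0.75 (adjusted p = 0.169), Hsph1 with 1.30 (adjusted p = 0.201), Hspa8 with 0.27 (adjusted p = 0.410), Hspd1 with -0.41 (adjusted p = 0.382) and Hspe1 with 0.30 (adjusted p = 0.743). Of the 8, 7 were higher in back, with a median of 0.88, against -0.18 over all genes, of which 36.7% were higher.

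Both calls were lost once library set was added to the fit, at adjusted p = 0.070 for Hspa1a and 0.081 for Dnajb1, with the same differences. They were also lost with the shift put back, on log2 of the normalised count plus 1 (2.56, adjusted p = 0.326, and 1.05, adjusted p = 0.414). Leaving out 1 library ended the Hspa1a call in 6 of 9 cases, all except control libraries 2 and 3 and back library 3, and its adjusted p then ran from 0.070 to 0.123. Without a library Dnajb1 was called in 1 of 9 cases, without the third back library, and its adjusted p was 0.052 to 0.143 in the other 8. In normalised counts the 2 groups overlapped for every member except Hsph1, which was higher without overlap, as were 4.55% of genes (10.4% were lower without overlap, 15% either way). For Hspa1a, for example, the third knockout tail library at 34102 lay above the first back library at 15989.

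Knockout back against control tail differs in genotype and site together. Hspa1a, Hspa1b, Dnajb1 and Hsph1 were higher in each back library than in each control library, while 7.41% of genes were higher without overlap. Their mean normalised counts in back were 12.5, 17.2, 2.41 and 12.7 times the control means. The third back library was the highest for each of these genes, so these ratios of means lean on it. Hspa1b had 3932, 4649 and 101954 in back, with a highest control of 3581, whereas Hsph1 had 2046, 3782 and 5697. None of the 8 passed limma on the deposited values, where 63 genes were called higher (0.387%) and 100 lower (0.614%), and 4 of the 8 were at an unadjusted p under 0.05. The nearest were Hspa1a with a log2 difference of 1.89 (SE 0.43, adjusted p = 0.056) and Hsph1 with 2.09 (SE 0.52, adjusted p = 0.060). Hspa1b stood at 1.10 (adjusted p = 0.098) and Dnajb1 at 0.44 (adjusted p = 0.184). Hsp90aa1 stood at 0.44, Hspa8 at -0.05, Hspd1 at -0.38 and Hspe1 at -0.02. The median of the 8 was 0.44, against -0.23 over all genes.

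With the shift put back, on log2 of the normalised count plus 1, these differences were larger and less certain. They were 3.06 for Hspa1a (limma adjusted p = 0.189), 2.70 for Hspa1b (adjusted p = 0.349) and 4.07 for Hsph1 (adjusted p = 0.102). The scale changed along with the shift, which matters most at low counts such as the Hsph1 controls (53.8 to 528). The increases are therefore not those of the shift alone. Without the third back library Hspa1a and Hsph1 were called in the deposited values, at adjusted p = 0.039 and 0.037. This comparison and the other 2 share their groups with each other, so their results are not independent. For the summed counts of Hspa1a and Hspa1b, which do not depend on how reads were divided between the copies, an exact two-sided permutation test gave p = 0.1 for back against control tail, the smallest that 3 against 3 libraries allow, at a log2 difference of 3.02. The exact permutation p was 0.3 for back against knockout tail (2.43) and 0.8 for knockout tail against control tail (0.60), and the 3 values adjusted over these comparisons were 0.3, 0.45 and 0.8.

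**Figure D2:**
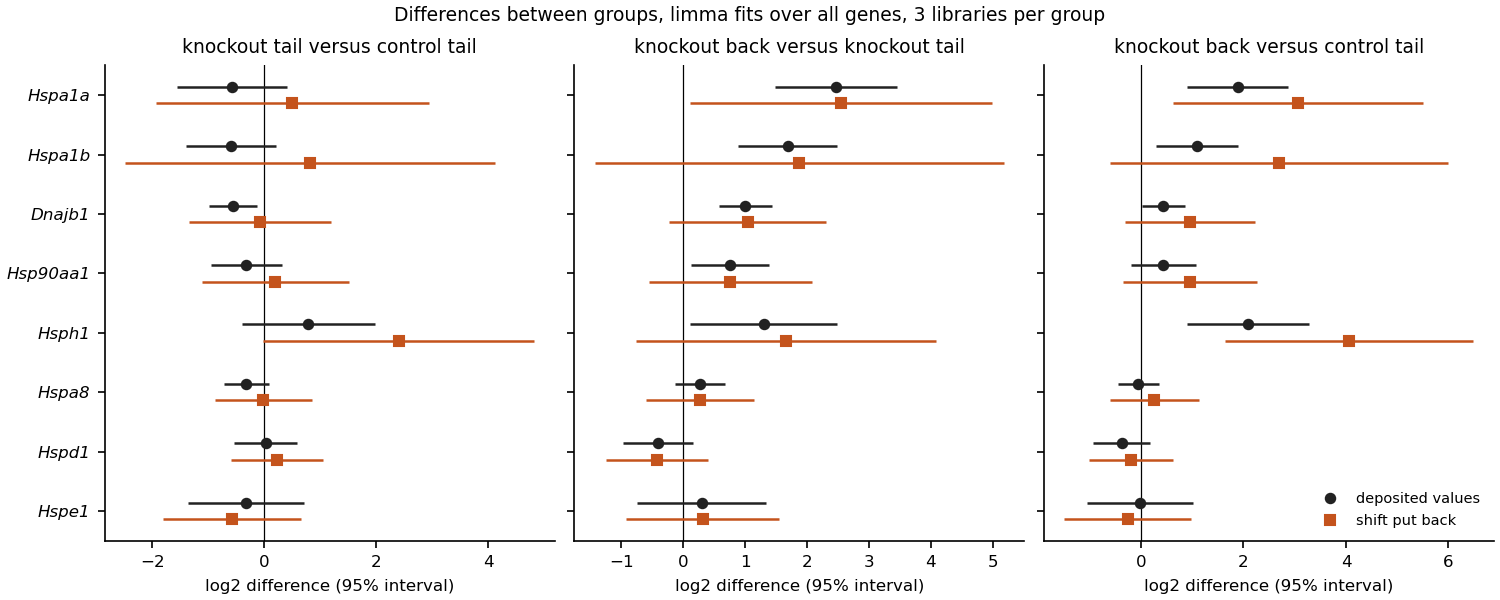
Log2 differences of the 8 chaperones in the 3 comparisons with 95% intervals from limma, from the deposited values (circles) and with the removed shift put back (squares); each panel has its own axis. Putting the shift back moves Hspa1a, Hspa1b and Hsp90aa1 to the other side of 0 in knockout tail against control tail and widens every interval.

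The chaperones also differed between libraries of the same group. The third libraries of both knockout groups were above the other 7 in Hspa1b, Dnajb1, Hsp90aa1, Hspa8 and Hspd1, 5 of the 8, against 10.3% of all genes. Within knockout tail the third library was the highest in 7 of 8 members (42.1% of genes), and within back also in 7 of 8 (42.5% of genes). The shift removed before deposit was accordingly large: 4.09 for Hspa1b, the 5th highest of 16296 genes, and 3.2 for Hspa1a, the 22nd highest. It was 1.6 for Hsph1, 1.52 for Hsp90aa1, 1.48 for Dnajb1, 0.92 for Hspa8 and 0.59 for Hspd1, and -0.65 for Hspe1, with a median of 0.16 over all genes.

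**Figure D3:**
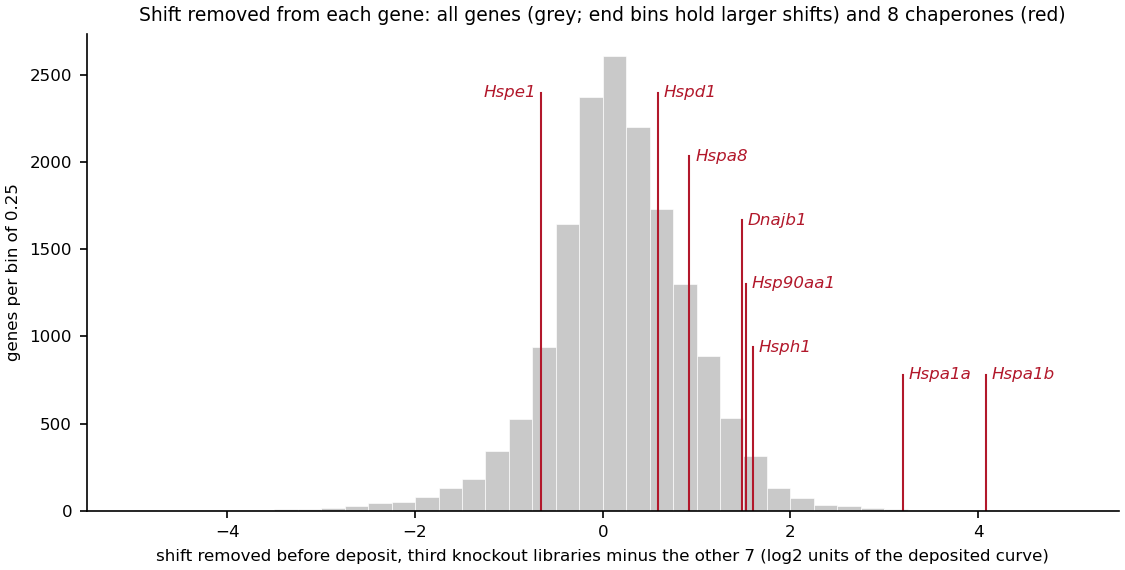
Histogram of the shift removed before deposit in each of 16296 genes (the third knockout libraries minus the other 7, log2 units of the deposited curve), with red lines for the 8 chaperones; the heights of the lines carry no meaning. Hspa1a at 3.2 and Hspa1b at 4.09 lie in the far right tail, and Hspe1 at -0.65 is the one chaperone below 0.

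The difference between the 2 library sets was also fitted, after the values had been seen, by limma with group and set as terms on log2 of the normalised count plus 1. Controls lie in 1 set only, so this difference is that of the third knockout libraries from the first and second of the same groups. Of the 8 chaperones 4 were called higher, as were 0.798% of all genes (2.88% in either direction). Hspa1b was 18.8-fold higher (log2 difference 4.23, SE 0.48, adjusted p = 0.0067), Hspa1a 7.77-fold (2.96, SE 0.52, adjusted p = 0.034), Dnajb1 2.96-fold (1.57, SE 0.22, adjusted p = 0.014) and Hspa8 2.03-fold (1.02, SE 0.19, adjusted p = 0.044). Hsp90aa1 (1.51, adjusted p = 0.066), Hsph1 (1.13, adjusted p = 0.612), Hspd1 (0.71, adjusted p = 0.264) and Hspe1 (-0.60, adjusted p = 0.602) did not pass. The median difference of all 16296 genes was 0.83 on this scale, and 0.58 with a pseudocount of 10, and by size of difference at a pseudocount of 1 Hspa1b lay at percentile 87.8 of all genes, Hspa1a at 76.7, Dnajb1 at 59.96 and Hspa8 at 53.1. In a fit of the 6 knockout libraries alone Hspa1b remained called (adjusted p = 0.040), while Hspa1a (0.061), Dnajb1 (0.079) and Hspa8 (0.115) did not.

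The back and tail libraries could be compared within each set. Between the third tail and the third back library all 8 chaperones were higher in back, by a median of 1.51 on the log2 scale, with 48.2% of all genes higher and a median of 0. Hspa1a was 5.91-fold, Hspa1b 5.04-fold, Hsp90aa1 2.92-fold and Hspa8 1.61-fold higher there. With 1 library a side this has no replicate check. Between the first and second libraries 6 of 8 were higher in back, with 30.7% of all genes higher. Hspa1a was 5.87-fold and Hspa1b 3.14-fold higher, while Hspa8 was 1.04-fold and Hspd1 0.593-fold.

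No gene of the other chaperone families was called with the members. In back against knockout tail no gene passed in the 9 other HSP70 and HSP110 genes (median -0.50), the 3 other HSP90 genes (0.40), the 23 other J-domain genes (-0.51) or the 4 small heat shock proteins (0.76). None passed among the 14 TRiC and prefoldin genes, which fold actin and tubulin (-0.34), the 22 HSP70 and HSP90 cochaperones (0.00) or the 4 heat shock factors and regulators (0.31). The same held for 13 other heat inducible genes (0.17), 22 genes of the unfolded protein response of the endoplasmic reticulum (-0.23), 14 mitochondrial chaperones and proteases (-0.36) and 16 oxidative and metal stress genes (-0.08). Over all genes 1.5% were called in this comparison and the median was -0.18. The absence of calls in lists this short lies close to that share. The smallest adjusted p-values of limma in these lists belonged to Cryab, a small heat shock protein (1.32, adjusted p = 0.081), Ier5, an immediate early gene that activates HSF1 (1.57, adjusted p = 0.086), and Hspa13, a microsomal HSP70 (-2.02, adjusted p = 0.099). Hsf1 itself had normalised counts of 1941 to 3229 in control tail, 3064 to 3708 in knockout tail and 3673 to 4906 in back.

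Immediate early and dissociation stress genes were the one list with calls in that comparison. Of 24 measured genes 9 rose in back and none fell. The median was 1.35 and 23 differences were positive. Over all genes 0.411% were called higher and 1.09% lower, 36.7% were positive and the median was -0.18. The 4 with the lowest adjusted p were Zfp36, which promotes decay of inflammatory transcripts (1.67, adjusted p = 0.021), and the transcription factors Egr1 (2.43, adjusted p = 0.021), Atf3 (3.50, adjusted p = 0.025) and Junb (1.46, adjusted p = 0.028). With the set term Junb was at adjusted p = 0.053 and the other 3 still passed. Against control tail 3 of the 24 were called higher in back, Fosb (2.63, adjusted p = 0.039), Egr1 (1.74, adjusted p = 0.042) and Zfp36 (1.25, adjusted p = 0.045), beside 0.387% of all genes. No gene of the other lists passed there. The nearest were Chordc1, an HSP90 cochaperone (1.32, adjusted p = 0.054, and 0.044 with the set term), Hspa2, a testis-enriched HSP70 (-2.86, adjusted p = 0.055, and 0.044 with the set term), and Cryab (1.45, adjusted p = 0.056). Hspa2 had normalised counts of 0 and 31.6 in the sparse back libraries and 2852 in the third. In knockout tail against control tail no gene of any list passed, and the immediate early genes had a median of -0.42, with 3 of 24 positive.

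**Figure D4:**
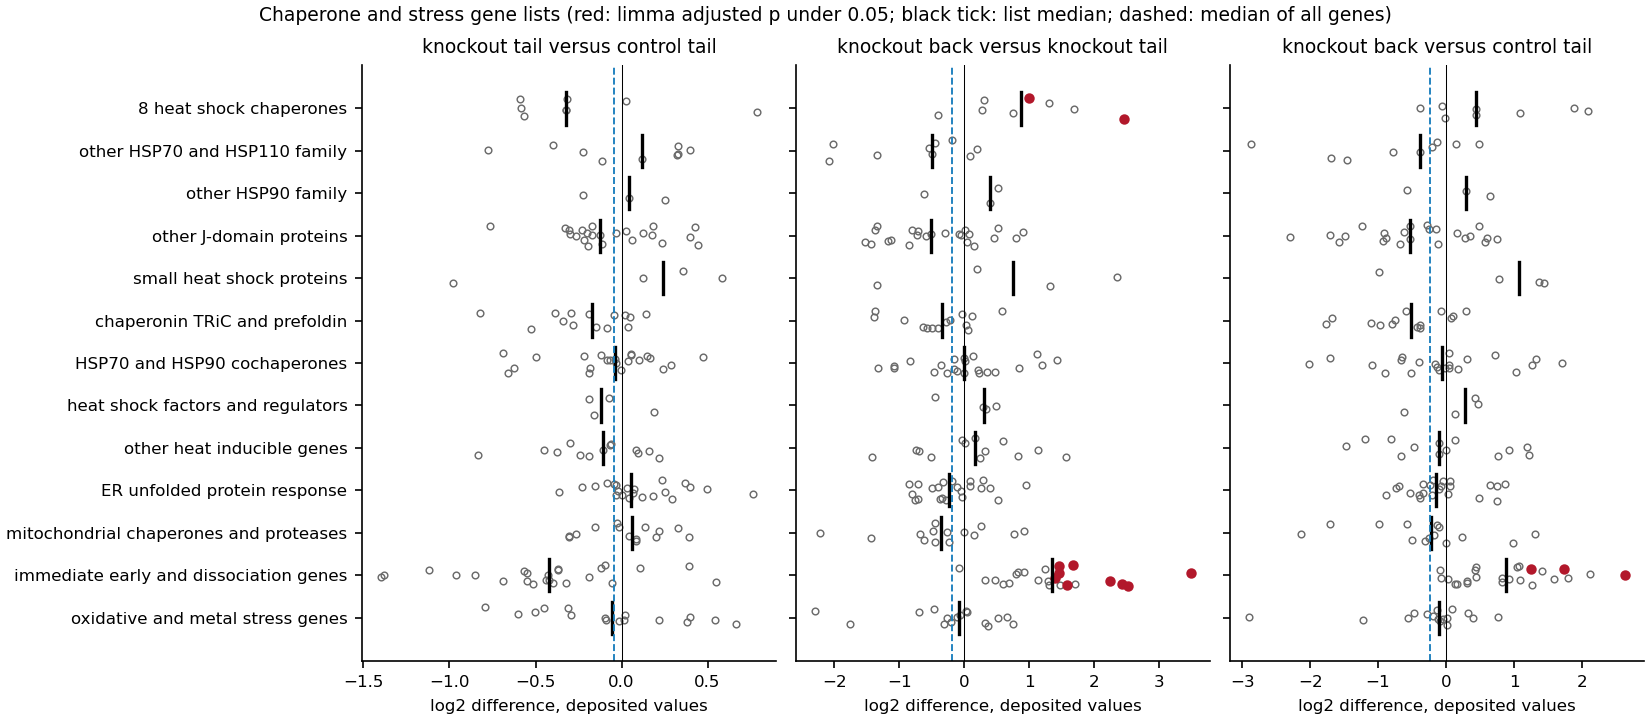
Log2 differences of every measured gene of the chaperone and stress lists in the 3 comparisons, from limma on the deposited values; red points passed an adjusted p of 0.05, black ticks are list medians and the dashed line the median of all genes. Only the 8 chaperones and the immediate early genes hold red points, the first in back against knockout tail and the second in both back comparisons.

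Between the library sets a few partners moved in the direction of the chaperones and others in the opposite one. Hsp90ab1, the constitutive cytosolic HSP90, rose in the third knockout libraries by 1.39 on the log2 scale (limma adjusted p = 0.016, all-gene median 0.83) and Ppp1r15a, which restores translation after stress, by 2.06 (adjusted p = 0.040). Bag1, a nucleotide exchange factor of HSP70, fell by 3.73 (adjusted p = 0.010), from 11286 to 32036 normalised counts in the other 7 libraries to 802 and 2370. Hsbp1, which binds HSF1, fell by 1.25 (adjusted p = 0.0081). Of the immediate early genes Zfp36 (1.43), Dusp1 (1.81), Nr4a1 (1.66) and Fos (1.57) rose, and Jund fell by 5.43 and Cebpb fell by 9.97. Cebpb had 543 to 7599 normalised counts in the other 7 libraries and 5 and 0 in the third knockout libraries. Gclm and Gclc encode the subunits of the enzyme that starts glutathione synthesis, and Gclm fell by 2.98 and Gclc fell by 3.17.

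The genes most like the cytosolic chaperones were searched by Pearson's r over the 9 libraries among 12880 genes, against the mean z-score of the 6 cytosolic members. These values describe libraries that share groups, sets and depth, and carry no test. In the deposited values the highest were Nkd1 (0.98), Fos (0.98), Zfp36 (0.96), Klf3 (0.95), Fads6 (0.94) and Rsrc2 (0.94). With the shift put back Fos (0.95) and Zfp36 (0.94) kept a high r and Rsrc2 had 0.81, while Nkd1 (-0.13), Klf3 (-0.11) and Fads6 (0.47) did not. Fos had normalised counts of 130074 to 239770 among the controls, of 134217, 123965 and 273519 in the tail knockouts and of 330163, 247719 and 1185134 in the back knockouts, so the third libraries were again the highest of their groups. For the mean of Hspd1 and Hspe1, genes among the nearest were Ddb2, Rapgef3 and Prune1 (0.99 each), which each had 0 counts in the second back library, where Hspd1 was also lowest.

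Among themselves, with the shift put back, Hspa1a and Hspa1b had an r of 0.95, Hsp90aa1 and Hspa8 also 0.95, and Dnajb1 and Hsp90aa1 0.94. Hspd1 and Hspe1 had 0.16, and Hspe1 was below 0 with each of the 6 cytosolic members. In the deposited values Hspd1 and Hspe1 had 0.60, and Hspa1a and Hspd1 had -0.74 against 0.06 with the shift put back.

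Markers of other epidermal cells differed between the same libraries. All 8 listed melanocyte markers were in the table, and the sum of the 5 with recovered counts was 517674 to 537754 in control tail, 576027 to 690015 in knockout tail and 714881 to 841190 in back. Single markers went different ways. Recovered counts in back were 123105, 117146 and 266050 for Tyr and 588646, 511033 and 360679 for Mlana. In control tail they were 183805 to 285651 and 329036 to 388588. In back against knockout tail 4 of the 8 were positive in the deposited values, with a median of 0.0017, and 1 was called higher. The 6 basal keratinocyte markers summed to 38508 to 99934 normalised counts in control tail, to 35909, 12363 and 324383 in knockout tail and to 119701, 39208 and 189571 in back, so the third knockout libraries were the highest. The 6 differentiated keratinocyte markers summed to 27214 to 109475, to 13877, 17028 and 146984, and to 35583, 196970 and 54362, highest in the second back library. Of 7 Langerhans and myeloid markers 6 had counts, summing to 138 to 482 among the controls, to 1038, 517 and 9546 in the tail knockouts and to 7150, 19177 and 21182 in the back knockouts. The 3 back libraries and the third knockout tail library were its 4 highest, as they were for Hspa1a, and the order below them differed. The sum was carried by the MHC class II genes Cd74, H2.Aa and H2.Ab1. Recovered counts of the other markers were spread otherwise: Lyz2 had 461, 110 and 146 among the controls, 1125, 568 and 326 in the tail knockouts and 117, 4594 and 130 in the back knockouts, Ptprc was at 0 to 227 with 0 in the third knockout tail and the first back library, and Csf1r was at 426 in the third knockout tail library and 15 to 27 elsewhere. Cd207 of that list, and all listed endothelial and mast cell markers, had no row. The 2 Merkel cell markers with counts summed to 0 to 166 among the controls, to 0, 0 and 945 in the tail knockouts and to 1395, 5788 and 480 in the back knockouts. The 4 highest libraries of this sum were also those of Hspa1a, but neither gene alone had these as its 4 highest. In back the recovered counts were 0, 4949 and 187 for Krt8 and 1295, 0 and 303 for Krt18. Krt20 and Atoh1 of that list had no row. The 2 Schwann cell markers with counts summed to 7258 to 13558 in the 6 tail libraries and to 26255, 19289 and 47129 in back. T cell, fibroblast and muscle markers stayed at or below 3228 summed counts in every library. The 5 blood markers were highest in the first 2 knockout tail libraries, at 84023 and 105763, where Hspa1a was low. Mitochondrial transcripts took 1.87 to 4.59% of counts and were highest in the first and second back libraries, and ribosomal protein genes took 1.11 and 1.38% in the third knockout libraries against 1.83 to 2.74% in the others. The part of other cells and of RNA quality in the chaperone levels was not tested, and in such sorted bulk samples fewer cells of a type and less RNA per cell cannot be told apart.

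**Figure D5:**
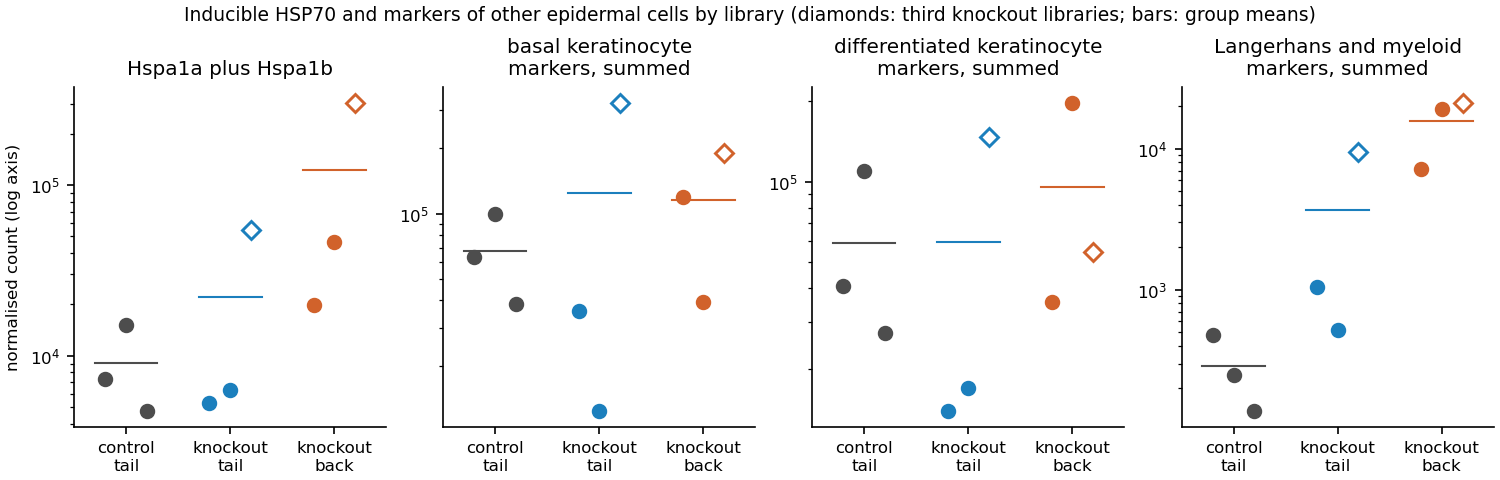
Summed normalised counts by library on log axes, each panel with its own range, for Hspa1a plus Hspa1b and for the markers of basal keratinocytes, differentiated keratinocytes, and Langerhans and myeloid cells; diamonds are the third knockout libraries and bars the group means of 3 libraries. Inducible HSP70 and the myeloid markers have the 3 back libraries and the third knockout tail library as their 4 highest.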

How the data were processed

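Paired-end reads of 150 bases from SMART-Seq v4 libraries had been turned by the authors into 1 deposited table of log2 values for 9 libraries. The submitters' processing notes name DESeq2 and GRCm38, and the aligner, the counter and its strand setting are not named in the labels or notes. The values followed a variance-stabilising curve, from which a shift between 2 sets of libraries (the third library of each knockout group, and the other 7) had been removed in every gene. Undoing both gave whole counts for 16296 of 16299 genes, each within 0.004 of a whole number. At these depths the spread between libraries exceeds counting error, for which no intervals are given.

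The main test was limma 3.58.1 (R 4.3.3) with trended, robust moderation, run on all 9 libraries' deposited values with group as the only term, and Benjamini-Hochberg adjustment over all genes at 0.05. This fit takes no account of the removed shift, which had been set from the same values, so its p-values can be too small. The fit with the set term takes account of it. Values with the shift put back are log2 of the normalised count plus a pseudocount, so they leave the deposited curve as well. The recovery and the fits were tested on simulated data. Alternatives were the set term, the shift put back (pseudocounts 1 and 10), limma-voom, other scalings, a filter at a mean normalised count of 10, moderation, weights, sample subsets, a replicate block and leaving out each library. Lengths and coordinates are from GENCODE vM21, matched to 15905 symbols, and promoters from RefSeq. Levels per length were computed for 15902 genes.

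The members and gene lists were chosen with earlier results of these data known, and the fit of the difference between library sets was added after the values were seen. Named genes were the 8 members. In each other list and comparison they were all genes that passed if 6 or fewer did, otherwise the 4 with the lowest adjusted p, or the 2 with the lowest p where none passed, of which the text gives those nearest the threshold. To these were added the 6 and 4 genes most alike, among genes with a mean normalised count of at least 100. Hsf1 and single marker genes were named outside this rule. Some genes that the rule names are not reported here.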

Additional observations from a re-analysis of the deposited data

How the results depend on the processing

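Under 26 alternatives the log2 difference of Hspa1a in back against knockout tail ran from 2.09 to 3.00 and passed in 8 (limma adjusted p 0.0046 to 0.348), and that of Dnajb1 from 0.78 to 1.53, passing in 5 (0.0029 to 0.422). In knockout tail against control tail no member passed under any of them. Libraries correlated best with their own replicate number in 6 of 18 cases in the deposited values and in 7 of 18 with the shift put back. The deposited count cannot decide on the knockout libraries numbered 3 (r = -0.70), because removing the shift had set their joint mean. With the shift put back, r in knockout tail against back was 0.051 to 0.212 for the same number and -0.131 to 0.070 otherwise. Against control the same-number r was -0.124 to -0.028 for knockout tail and -0.043 to 0.018 for back. These values do not settle whether the libraries were paired. The replicate block gave 21 genes and 1 member in back against knockout tail and 42 genes in back against control tail, and it ended the Dnajb1 call. The cause of the changes below was not tested.

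In knockout tail against control tail (0 genes) the set term called 10 genes, and putting the shift back 4 with either pseudocount. Hspd1 turned to -0.0040 with the set term. With the shift put back (either pseudocount, or with the replicate block added after seeing the data) Hspa1a turned to 0.50, Hspa1b to 0.82 and Hsp90aa1 to 0.19, and with limma-voom to 0.33, 0.53 and 0.14. In the deposited values 2 members had groups without overlap.

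In back against knockout tail (244 genes, 2 members) 71 genes were called with the set term, 139 and 41 with the shift put back at pseudocounts 1 and 10, 76 with libraries centred on their medians, 1325 with array weights, 2 with only the 6 libraries compared, 1637 in the larger library set and 0 without the 2 sparse back libraries. Of the members 0 were called with the set term, the shift put back, limma-voom, no mean-variance trend, the 6 libraries, the larger set or without the sparse libraries, 1 with limma-voom and the set term, and 5 with array weights. The added fits called 1 gene (without the sparse libraries, set term) and 6 genes (replicate block, shift put back), with 0 members. Hspd1 turned to 0.12 with centred medians and to 0.22 without the sparse libraries with the set term, and Hspe1 to -0.093 in the larger set. In the deposited values 3 members had groups without overlap.

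In back against control tail (163 genes, 0 members) 545 genes were called with the set term, 338 and 257 with the shift put back, 317 with limma-voom, 428 with limma-voom and the set term, 579 after quantile normalization, 256 without robust moderation, 903 with array weights, 7 with only the 6 libraries, 2371 in the larger set and 0 without the sparse libraries. Quantile normalization called 2 members and array weights 3. The added fits called 8 genes (without the sparse libraries, set term) and 41 (replicate block, shift put back). Hspa8 turned to 0.26 with the shift put back (both pseudocounts, and with the block), 0.30 with limma-voom, 0.51 with centred medians, 0.17 with array weights, 0.22 without the sparse libraries and 0.44 with the set term too. Hspd1 turned to 0.18 with centred medians and 0.38 without the sparse libraries with the set term, and Hspe1 to 0.54 with centred medians, 0.38 with array weights, 0.43 without the sparse libraries and 0.94 with the set term too. Between the library sets limma-voom called 156 genes in place of 469, and the 6 knockout libraries alone 27 genes and 1 member.

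Leaving out 1 library moved the genes called from 3 (without the third knockout tail library) to 1972 (without the third back library) in back against knockout tail, and from 0 (without any control, the first knockout tail or the first back library) to 2804 (without the third back library) in back against control tail. Members called then ran from 0 to 3 and from 0 to 2. Members without overlap ran from 1 to 4 in back against knockout tail and from 1 to 3 in knockout tail against control tail. The summed Hspa1a and Hspa1b difference in knockout tail against control tail ran from -0.48 (without the third knockout tail library) to 1.2. Uncalled differences that changed sign ran from -0.19 to 0.10 for Hspa8 and from -0.40 to 0.59 for Hspe1 in back against control tail, from -0.081 to 0.91 for Hspe1 in back against knockout tail, and from -0.067 to 0.15 for Hspd1 in knockout tail against control tail.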
